A study of Sus scrofa with 4 samples.

Results

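Integrins are adhesion receptors made of an alpha and a beta chain, and the 5 genes described here encode the chains alpha-v (ITGAV), beta-1 (ITGB1), beta-3 (ITGB3), beta-5 (ITGB5) and beta-8 (ITGB8). They were taken by symbol from a table of 20648 pig genes. They were also selected on earlier summaries of these data, in which the ITGB3 level in all cells and in macrophages was higher with the peptide, so those ITGB3 values are given as a description with no test. The alpha-v chain can pair with each of the 4 beta chains, and the resulting receptors bind proteins of bone matrix such as osteopontin, bone sialoprotein, vitronectin and fibronectin. The pair of alpha-v and beta-3 is known, from human and mouse studies, as the main integrin of osteoclasts, the large cells that resorb bone, where it gathers in the ring of adhesion that seals the cell to the surface. The pair of alpha-v and beta-8 binds latent TGF-beta and promotes its release, while beta-1 has many other alpha partners and serves most adherent cells as a receptor for collagen, laminin and fibronectin.

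Single-cell RNA was measured in regenerated bone of Bama mini-pigs, a small pig breed, aged 8 months. The labels give 2 libraries of a group named after a peptide, 1797, and 2 libraries of a group named after a control peptide. The tissue was digested with collagenase, its red cells were lysed, and the cells went through a droplet assay that counts transcripts by unique molecular identifiers (UMIs) near their 3′ end. The labels state neither the dose and the kind of defect nor whether the libraries come from different animals. A p-value below therefore reflects the spread of these 4 samples alone, and that spread may be technical. Further control samples named in the series' design were not analysed here.

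The 1797 libraries held 87844389 and 98758412 UMIs and the control libraries 96410215 and 98294210. Filters and the removal of called doublets left 49137 cells, 12218 and 12688 with 1797 and 12765 and 11466 with the control peptide, and 245 barcodes occurred in more than 1 library. Median depth per kept cell was 3863 and 3145.5 UMIs with 1797 and 5345 and 4606 UMIs with the control peptide. In 1797 library 1, 1159 barcodes had fewer than 200 genes, where the other libraries had 55 to 309. Cells were clustered and clusters were named from marker lists, so that each class name below stands for cells with the markers of that type (osteoclast-like, macrophage-like and so on). This gave 16 named classes. The 14 with at least 20 cells in every library were compared between the groups, and 5849 cells stayed unnamed.

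The classes differed in size between libraries. The osteoclast class had 99 and 204 cells with 1797 and 65 and 65 cells with the control peptide, and the macrophage class had 492 and 402 against 626 and 640. The stromal or osteoblast class had 289 and 45 cells with 1797 and 116 and 219 cells with the control peptide. Its smallest library, and those of the plasma and erythroid classes, held fewer than 50 cells. The osteoclast class was named from 12 markers, which include ACP5, the tartrate-resistant phosphatase, and CTSK, the collagen-cutting cathepsin of resorbing cells. A high level of these markers there follows from the naming and is no separate check. Their summed level was 11449 and 9285 CPM (UMIs of a gene scaled to 1000000 UMIs of the class in that library) in the 1797 osteoclasts and 6041 and 16279 CPM in the control osteoclasts, against 602 to 990 CPM in macrophages of the 4 libraries. No member was among the markers.

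Over all kept cells ITGAV had 118565 UMIs, ITGB1 97926, ITGB3 18752, ITGB5 16468 and ITGB8 10208. The counts come from transcript ends and are not divided by transcript length, so each gene is compared between classes and not with another gene. In the RefSeq annotation of the Sscrofa11.1 build, ITGAV spans positions 91604666 to 91711843 of chromosome 15, where it overlaps 1 other annotated gene, LOC110256917. ITGB1 spans 56078393 to 56130608 of chromosome 10 and ITGB3 spans 16694466 to 16752228 of chromosome 12. ITGB5 spans 135468111 to 135587483 of chromosome 13, and ITGB8 spans 89342245 to 89450701 of chromosome 9. The values below are for whole genes, and isoforms were not separated.

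Across cell types, the alpha-v gene was highest in osteoclasts. ITGAV reached 2604 and 2388 CPM in the 1797 osteoclasts and 2198 and 2708 CPM in the control osteoclasts, a mean of 2474 ± 227 CPM (SD, n = 4 libraries). The next class was the stromal or osteoblast class, with 930 and 649 CPM in the 1797 libraries and 447 and 854 CPM in the control libraries. The lowest osteoclast library lay above the highest stromal library, and the ratio of the means was 3.44. With mixed clusters divided more coarsely, or with coarser clustering, the osteoclast mean was 1595 CPM. Behind them came monocytes (472 CPM), endothelial cells (436 CPM), macrophages (344 CPM) and dendritic cells (331 CPM), whose libraries overlapped from each class to the next. B cells stood lowest at 21.0 CPM, with plasma, NK or cytotoxic T cells and neutrophils at 29.1 to 32.3 CPM. Pericytes or smooth muscle cells, with 17 cells in 2 of the libraries, had 743 CPM over the 4 libraries together.

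ITGB3 was also highest in osteoclasts, and lower elsewhere. It stood at 832 and 645 CPM in the 1797 osteoclasts and at 516 and 812 CPM in the control osteoclasts, a mean of 701 ± 149 CPM (SD, n = 4). Dendritic cells followed with 91.3 and 41.3 CPM in the 1797 libraries and 48.9 and 102 CPM in the control libraries. The libraries of these classes did not overlap, and the ratio of the means was 9.91. The osteoclast mean was 427 CPM with the coarser division or clustering. Endothelial cells (57.1 CPM), monocytes (37.7 CPM), stromal cells (34.0 CPM) and macrophages (20.5 CPM) came next, each overlapping its neighbour. The macrophage mean was 47.4 CPM when the members were left out of the clustering. No lymphoid class had a mean above 8.36 CPM.

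ITGB1 was present in every class. Endothelial cells led with 715 and 672 CPM in the 1797 libraries and 537 and 680 CPM in the control libraries, and overlapped stromal cells, which had 540 and 480 CPM against 492 and 717 CPM. Osteoclasts, at 388 ± 53.1 CPM (SD, n = 4), overlapped dendritic cells (406 CPM) and monocytes (372 CPM). Neutrophils were lowest at 51.6 CPM, with no overlap with the next class. The class with the highest ITGB1 mean thus had 12.6 times the level of the lowest, while the same ratio was 118 for ITGAV and 257 for ITGB3.

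ITGB5, the chain of a vitronectin receptor, was highest in stromal cells, with 278 and 185 CPM in the 1797 libraries and 143 and 252 CPM in the control libraries. Macrophages overlapped them at 123 and 141 CPM in the 1797 libraries and 132 and 158 CPM in the control libraries. Osteoclasts followed at 100.3 ± 22.2 CPM (SD, n = 4), below every macrophage library, and then plasmacytoid dendritic cells at 62.4 CPM. Outside the 14 compared classes, pericytes or smooth muscle cells had 118 CPM and chondrocytes 92.1 CPM over the 4 libraries together. Monocytes had 10.9 CPM, and their highest library, at 14.2 CPM, lay below the lowest macrophage library.

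ITGB8 was highest in mononuclear phagocytes and osteoclasts. Macrophages had 135 and 138 CPM in the 1797 libraries and 106 and 93.0 CPM in the control libraries. Osteoclasts had 112 and 70.8 CPM against 104 and 54.1 CPM, and overlapped them. Monocytes followed with a mean of 56.1 CPM, and their lowest library, at 35.8 CPM, lay above the highest stromal library, at 28.1 CPM. Endothelial cells, the highest class for ITGB1, had 1.91 CPM of ITGB8.

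**Figure D1:**
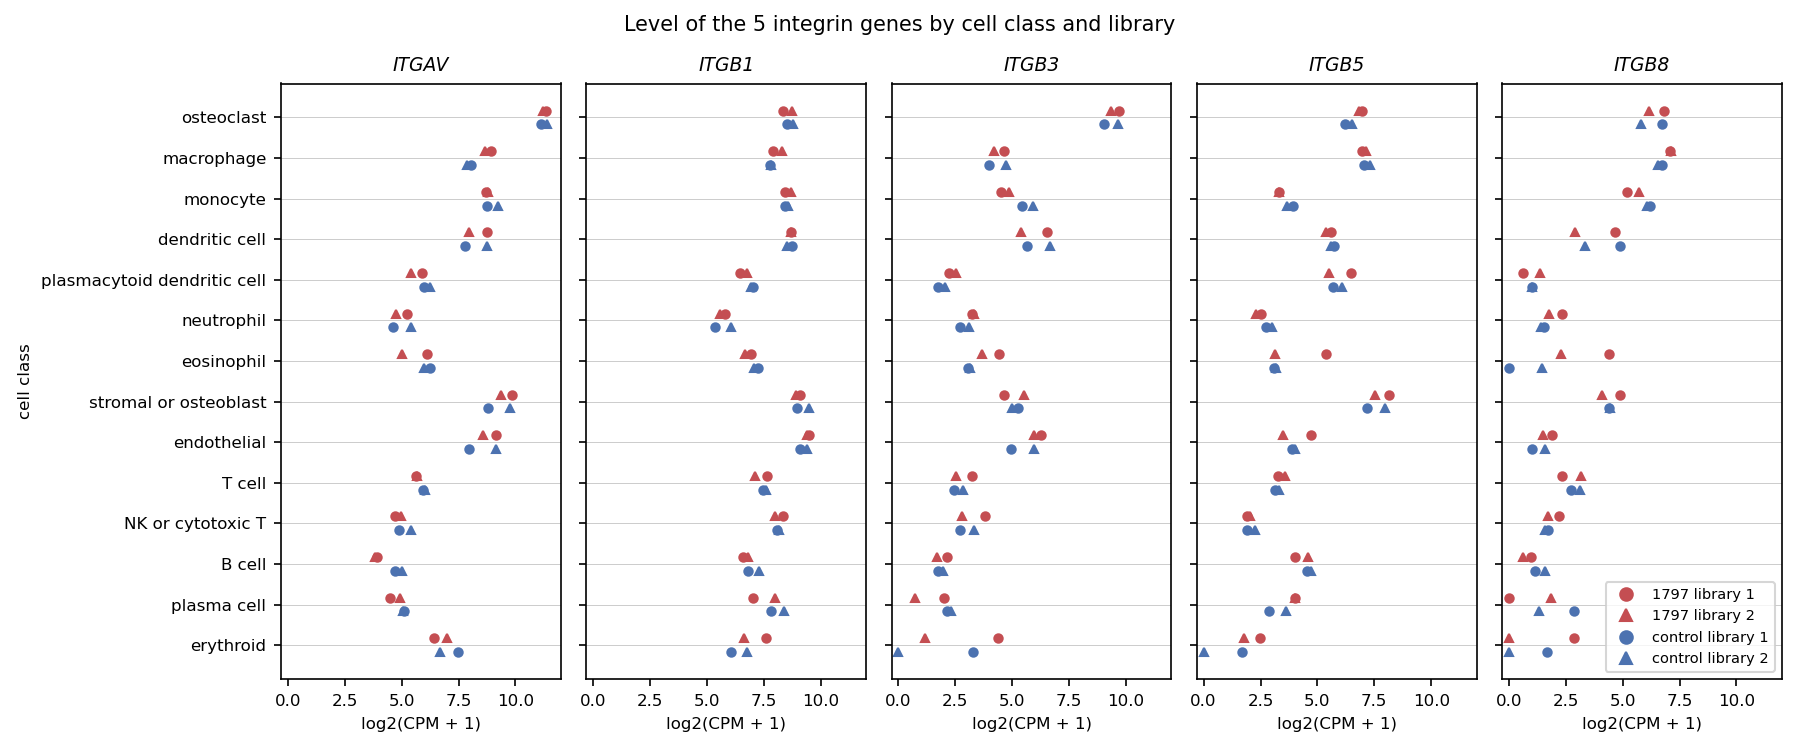
Level of each integrin gene by class, as log2(CPM + 1) of the summed UMIs of a class in a library. Each point is 1 of the 4 libraries, 1797 or control. ITGAV and ITGB3 share osteoclasts as their highest class, ITGB1 peaks in endothelial and stromal cells, ITGB5 in stromal cells and ITGB8 in macrophages and osteoclasts.

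The plot of levels by class shows that ITGB3 and ITGAV have the same highest class and that the other beta genes each have another one. The clusters were made from these cells, and 3 of the 5 members were among the 2000 variable genes used, so the differences between classes are a description without a test. Leaving the members out of the variable genes left 92.1% of the osteoclasts in their class.

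Shares of cells with at least 1 UMI gave the same leading classes. They were taken after each cell was thinned to 1000 UMIs, because median depth was 37454 UMIs in osteoclasts, 1571.5 in macrophages and 8721 in B cells. At this depth 73.3% of osteoclasts had an ITGAV UMI (exact binomial 95% interval 68.8% to 77.4%, 430 cells), against 97.0% before thinning. The ITGAV shares by library were 73.7% and 74.8% in the 1797 osteoclasts and 71.9% and 69.2% in the control osteoclasts. Stromal cells had 42.1%, monocytes 26.8% and macrophages 17.3%, while B cells, which served with neutrophils and erythroid cells as a measure of free RNA, had 2.22% (13.9% unthinned). Neutrophils had 2.68% and erythroid cells 6.63%. Intervals cover counting error only.

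An ITGB3 UMI was found in 44.9% of thinned osteoclasts (40.1% to 49.7%), against 91.2% before thinning. By library the share was 57.6% and 39.1% in the 1797 osteoclasts and 42.2% and 46.2% in the control osteoclasts, so the groups overlapped. The mean share over libraries was 27.9% with the coarser clustering. Dendritic cells had 6.18% and monocytes 3.14%. Macrophages had 1.90% (1.23% to 2.79%), which overlaps the 1.08% of erythroid cells (0.468% to 2.12%), so at this depth macrophage ITGB3 could not be told from the highest of the background classes. B cells had 0.345% and neutrophils 0.605%. For macrophages, 842 of 2160 cells fell under 1000 UMIs and were left out.

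Stromal cells led for ITGB5 with 19.1%, followed by macrophages with 10.4% and osteoclasts with 8.60%, against 1.90% of B cells, 0.528% of neutrophils and 0.271% of erythroid cells. For ITGB8 the shares were 7.06% of macrophages, 5.58% of osteoclasts and 4.59% of monocytes, against 0.123% of B cells, 0.233% of neutrophils and 0.135% of erythroid cells. These beta genes were thus detected above the background classes in the same cell types as by their summed level.

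Among osteoclasts, the members differed between clusters. The class was made of a cluster of 224 cells with high ACP5, CTSK and DCSTAMP, the last a fusion protein of osteoclast precursors, a cluster of 185 cells with high MKI67 and CCNF, genes of dividing cells, and a cluster of 24 cells led by GPNMB and LPL. In the ACP5-high cluster ITGAV was at 3735 and 3206 CPM in the 1797 libraries and at 3657 and 3310 CPM in the control libraries. In the cycling cluster it was at 1819 and 1966 CPM against 1412 and 1729 CPM. Every library was thus higher in the ACP5-high cluster, though control library 2 had only 14 cells in the cycling one. ITGB3 was at 1149 and 872 CPM in the 1797 libraries and at 776 and 1021 CPM in the control libraries of the ACP5-high cluster, and at 639 and 526 CPM against 376 and 447 CPM in the cycling cluster.

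ITGB8 was lower in the ACP5-high cluster. It was at 48.7 and 16.8 CPM in the 1797 libraries and at 43.5 and 21.8 CPM in the control libraries of the ACP5-high cluster, and at 79.97 and 108 CPM against 140 and 143 CPM in the cycling cluster. This held in all 4 libraries, of which control library 2 had 14 cells in the cycling cluster. The small GPNMB cluster had 335 CPM of ITGAV and 77.9 CPM of ITGB3 over all libraries, below both larger osteoclast clusters. Its ITGB8 was 278 CPM over all libraries, but 808 CPM in library 1 of the 1797 group against 119 CPM in library 2, and 50.1 and 6.51 CPM in the control libraries, with 2 to 10 cells in each.

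An unnamed cluster of 406 cells, split from the same parent cluster, held markers of dividing cells, osteoclasts and macrophages together. Its pooled ITGAV (589 CPM) and ITGB3 (91.6 CPM) lay above those of every macrophage cluster and below those of both larger osteoclast clusters, and its ITGB8 (191 CPM) was above that of every named cluster except the small GPNMB one. Among macrophages the first deep cluster, led by MRC1 and CXCL13, had 496 CPM of ITGAV and 114 CPM of ITGB8. The second deep cluster, led by APOE and C3, had 223 CPM and 159 CPM. A shallow cluster of 1257 macrophages led by CD5L and the C1Q genes, with a median of 788 UMIs per cell, had 77.0 CPM of ITGAV and 4.36 CPM of ITGB8.

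**Figure D2:**
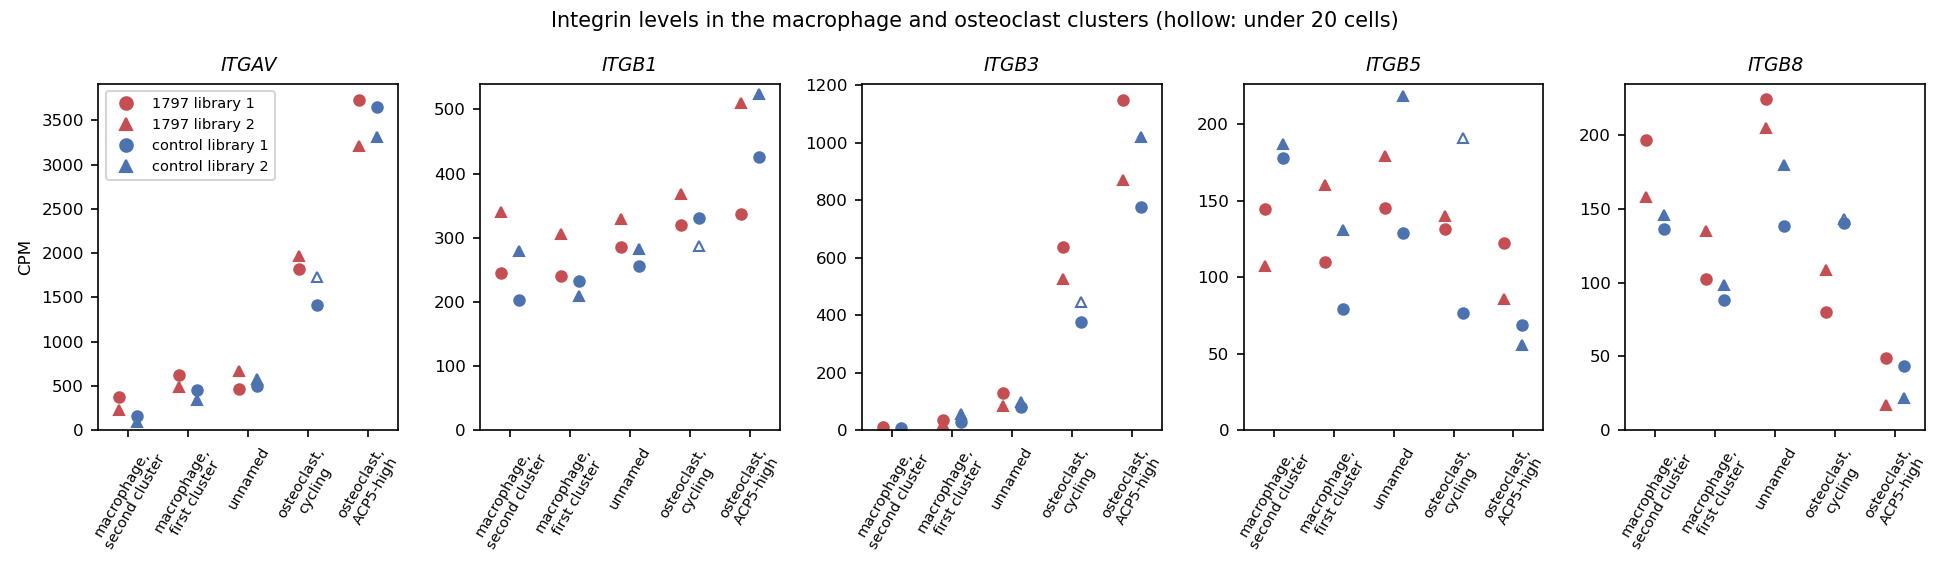
Level in CPM of each integrin gene in 5 clusters of macrophages, unnamed cells and osteoclasts, each point a library (1797 or control). Hollow points stand for fewer than 20 cells. ITGAV and ITGB3 are highest in the ACP5-high osteoclasts in every library, and ITGB8 is lowest there.

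The plot of levels by cluster shows this opposite order of ITGB3 and ITGB8 between the cycling and the ACP5-high osteoclasts. Pooled over the libraries, the unnamed cluster had more of both genes than the macrophage clusters shown. The order follows clusters that were themselves made from expression, and whether the clusters are stages of one path was not tested.

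Stromal clusters differed as well, in levels pooled over the libraries. The cluster led by CXCL12, a niche chemokine, had 951 CPM of ITGAV and 818 CPM of ITGB1, and the cluster led by MMP13, TNC and IBSP had 1018 CPM and 613 CPM. The cluster led by BGLAP and IFITM5, genes of mineralizing osteoblasts, had 204 CPM of ITGAV, 271 CPM of ITGB1 and 89.7 CPM of ITGB5. Its ITGB5 compares with 272 to 288 CPM in the stromal clusters led by CXCL12, MMP13 or SFRP4. In the other stromal clusters ITGB5 was at 87.2 to 164 CPM, so a low level was not particular to the BGLAP cluster. A cluster led by SFRP4 and POSTN came almost wholly from library 1 of the 1797 group (50 cells) and library 2 of the control group (111 cells), against 2 and 2 cells in the others.

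The make-up of the beta genes differed between classes as well. Of the UMIs of the 4 beta genes, ITGB3 gave 54.2% in osteoclasts, ITGB1 31.1%, ITGB5 8.34% and ITGB8 6.34%. The ITGB3 part in osteoclasts was 59.8% and 51.4% with 1797 and 48.9% and 58.1% with the control peptide. In the ACP5-high cluster ITGB3 gave 62.2% and ITGB8 1.79%, and in the cycling cluster 46.9% and 10.0%. In macrophages the ITGB3 part was 4.58% and 2.83% with 1797 and 3.19% and 5.18% with the control peptide. Macrophages had instead ITGB1 at 47.8%, ITGB5 at 25.7% and ITGB8 at 22.8% of the beta UMIs.

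Other classes were dominated by ITGB1, with 95.5% in NK or cytotoxic T cells, 88.4% in endothelial cells, 77.8% in monocytes and 67.6% in stromal cells. Stromal cells and plasmacytoid dendritic cells had ITGB5 as their second beta gene, with 26.6% and 34.0%. In monocytes ITGB8 was second at 11.9%. Such parts are compared between classes, since the assay does not make UMIs of different genes equal in yield. There were 3.54 ITGAV UMIs for each ITGB3 UMI in osteoclasts (3.13 and 3.70 with 1797, 4.26 and 3.34 with the control peptide), against 18.1 in macrophages and 26.8 in stromal cells.

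**Figure D3:**
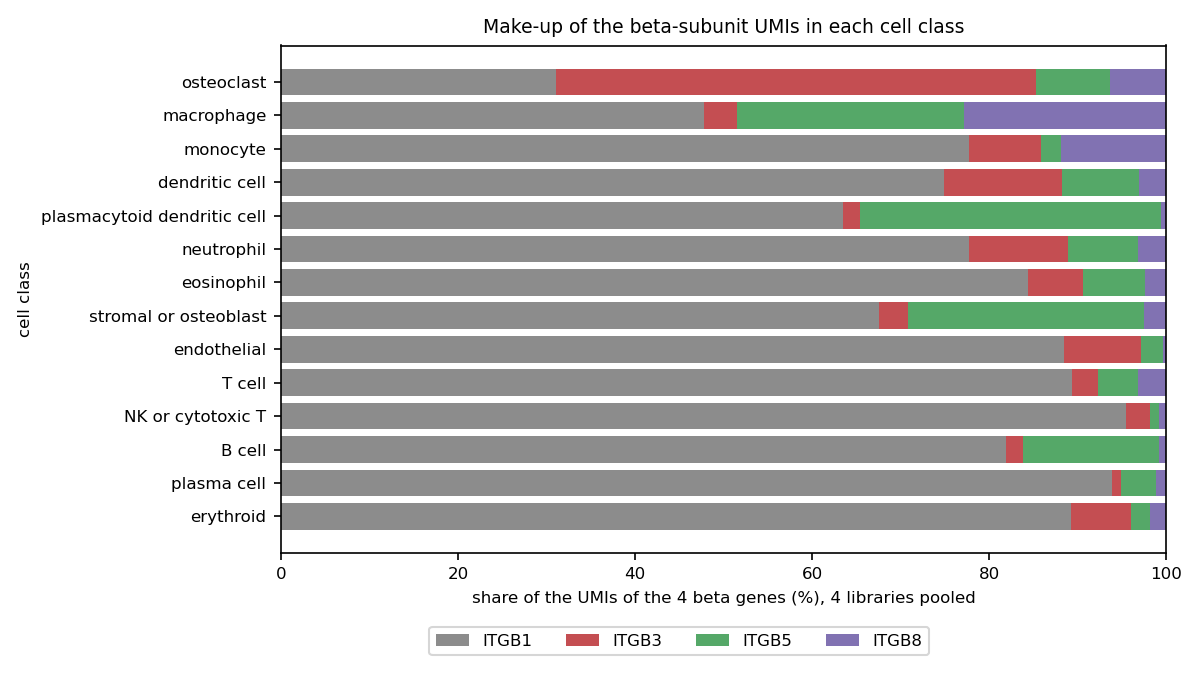
Share of the summed UMIs of ITGB1, ITGB3, ITGB5 and ITGB8 given by each gene, in percent, per class over the 4 libraries together. ITGB3 gives 54.2% in osteoclasts and 3.70% in macrophages, and ITGB1 gives most of the UMIs in endothelial, stromal and lymphoid classes.

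The plot of the beta make-up has osteoclasts as the class in which ITGB3 and not ITGB1 gives the largest part. The transcripts were also found together in single cells. Of the 430 thinned osteoclasts 152 (35.3%) had UMIs of both ITGAV and ITGB3, which was 48.3% of the cells with ITGAV and 78.8% of those with ITGB3. In macrophages 9 of 1318 cells had both. Before thinning, 90.1% of osteoclasts and 6.30% of macrophages had both. Detection in the same cell at this depth also depends on chance capture, and no excess over it was tested.

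Over 16 classes, log2(CPM + 1) of ITGAV correlated most with that of ITGB3, with a Pearson correlation of 0.87 and a Spearman correlation of 0.81. The same was 0.75 and 0.71 with ITGB1, 0.73 and 0.61 with ITGB8, and 0.66 and 0.63 with ITGB5. This order did not hold over 38 single clusters, where the Pearson correlation of ITGAV was 0.76 with ITGB1, 0.73 with ITGB5, 0.69 with ITGB3 and 0.59 with ITGB8. Among 10833 genes, ITGAV was the gene whose pattern over classes was most like that of ITGB3, followed by PFKL, CKB, ACVRL1 and RNH1 (0.84 to 0.85). For ITGAV the nearest genes were ANXA5, LHFPL2, MAP4K3, MPP5 and EEA1 (0.91 to 0.94). For ITGB8 they were ARHGAP10, ACP2, SLC22A3, PLXNA1 and MITF (0.89 to 0.92), of which MITF is a transcription factor of the osteoclast and macrophage lineage. The genes nearest to ITGB1 were DPYSL2, DCBLD1, PRUNE1, PBX3 and C1H15orf57 (0.87 to 0.91), and those nearest to ITGB5 were LRRIQ3, LOC110260348, LOC100512977, MESDC2 and MANBAL (0.87 to 0.90). The classes share libraries and depth, so these correlations describe likeness over cell types and carry no test.

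Osteoclasts, a small class, held much of the ITGAV and ITGB3 UMIs of a library. They were 0.810% and 1.61% of cells with 1797 and 0.509% and 0.567% with the control peptide. They held 56.9% and 75.3% of the ITGB3 UMIs with 1797 and 46.4% and 47.4% with the control peptide. For ITGAV the part was 27.6% and 51.9% against 28.6% and 21.5%. Both ITGB3 values of the 1797 libraries lay above both control values, while the ITGAV values overlapped. The ITGB3 parts rest on the all-cell ITGB3 counts that the selection used, so this is a description. How many other genes have osteoclast parts apart in this way was not counted.

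Stromal cells held 36.6% and 6.23% of the ITGB5 UMIs with 1797 and 13.1% and 49.1% with the control peptide, where they were 2.37% and 0.355% of cells and 0.909% and 1.91% of cells. Unnamed cells held 29.5% of them in library 2 of the 1797 group and 8.15% to 16.2% in the others. ITGB8 came from macrophages (29.8% and 24.1% with 1797, 23.9% and 15.7% with the control peptide) and from monocytes (9.55% and 17.2% with 1797, 29.9% and 39.6% with the control peptide). Osteoclasts held 17.9% and 14.5% of ITGB8 UMIs with 1797 and 10.4% and 6.998% with the control peptide. Unnamed cells held 21.6% and 37.5% of them with 1797 and 18.3% and 15.04% with the control peptide, the largest part in library 2 of the 1797 group. The monocyte part was below both control values in both 1797 libraries, and how many other genes show this was not counted.

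**Figure D4:**
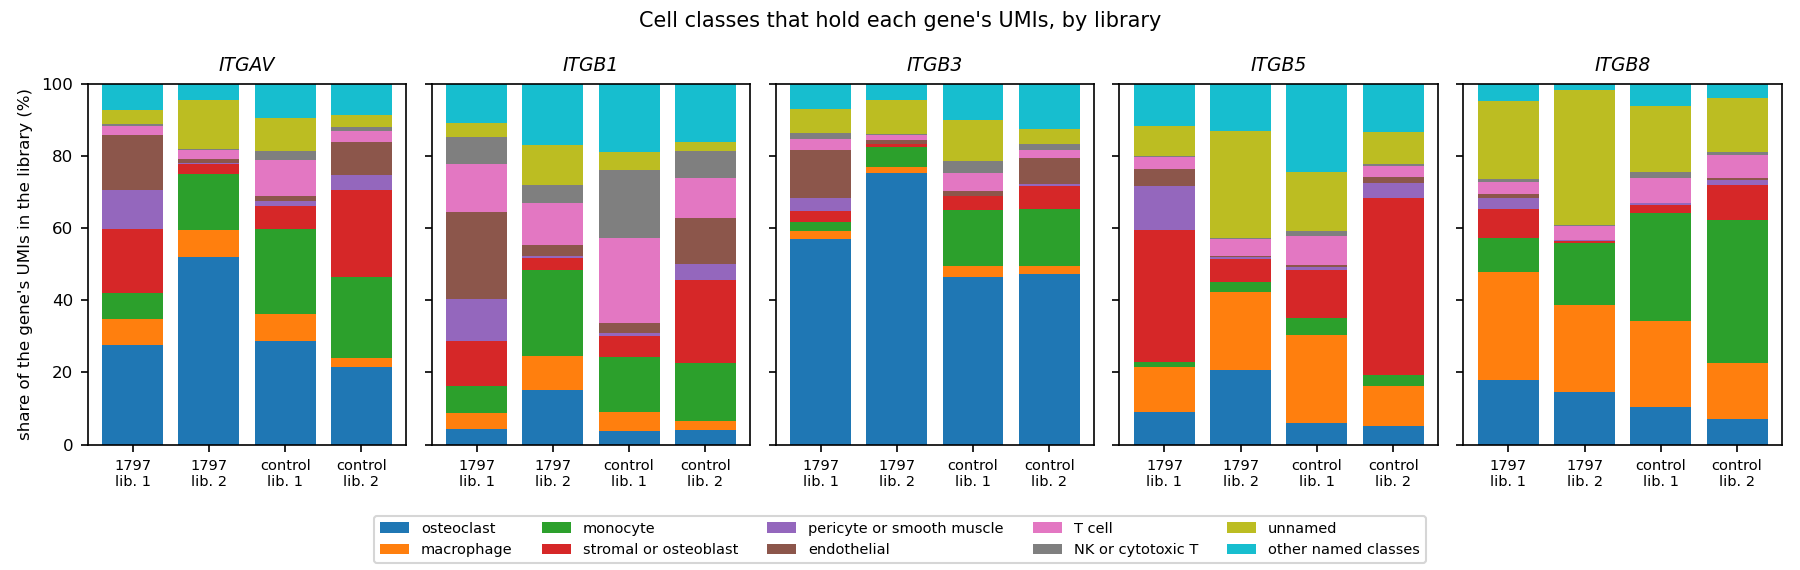
Share of each integrin gene's UMIs that came from each class, in percent of all UMIs of that gene in a library, for the 2 libraries of the 1797 group and the 2 of the control group. Osteoclasts hold 46.4% to 75.3% of ITGB3 UMIs, and the stromal part of ITGB5 ranges from 6.23% to 49.1%.

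The plot of UMI sources bears on the sum of all cells, in which fewer cells of a type and less RNA per cell cannot be told apart. In that sum ITGB3 was at 61.3 and 73.2 CPM in the 1797 libraries against 26.3 and 47.7 CPM in the control libraries, and ITGAV at 395 and 393 CPM against 182 and 351 CPM. ITGB8 was at 26.3 and 41.8 CPM in the 1797 libraries against 23.6 and 21.5 CPM in the control libraries. ITGAV and ITGB8, 2 of the 4 members that the selection did not use here, had both 1797 values above both control values, as did 12.6% of the 16654 genes tested. ITGB1 and ITGB5 overlapped. The log2 fold change of 1797 over control was 0.56 ± 0.35 for ITGAV, 0.06 ± 0.23 for ITGB1, 0.36 ± 0.32 for ITGB5 and 0.59 ± 0.33 for ITGB8 (standard errors), with no adjusted p under 0.05 by edgeR's quasi-likelihood test with Benjamini-Hochberg adjustment over all genes. In this sum edgeR called 0% of the genes, 264 (1.59%) had an unadjusted p under 0.05, and DESeq2 called 21 (0.126%), none of these 4 members among them.

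Within cell types, the test of 1797 against control covered 58 values of a member in a class, with ITGB3 in macrophages left out. ITGAV and ITGB1 passed the filter on low counts in all 14 classes, ITGB5 in 12, ITGB8 in 9 and ITGB3 in 9 besides macrophages. By edgeR 0 were called at an adjusted p of 0.05, beside 0.13% of the values of all genes in these classes. Of those 190 calls over all genes, 189 were in plasma cells. An unadjusted p under 0.05 was found for 6 of the member values, beside 5.43% of all. DESeq2 called 1, ITGAV in macrophages, beside 0.594% of all. In 8 of the values both 1797 libraries lay above both control libraries, beside 15% of all. In 13 they lay below, beside 18.6%, and in 37 the groups overlapped.

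ITGAV and ITGB3 were not called in osteoclasts. ITGAV averaged 2496 ± 152 CPM in the 1797 osteoclasts and 2453 ± 360 CPM in the control osteoclasts, and ITGB3 averaged 739 ± 132 CPM and 664 ± 209 CPM (SD, n = 2 each). The log2 fold changes were 0.01 ± 0.19 for ITGAV and 0.14 ± 0.27 for ITGB3, both with an adjusted p of 0.998 by edgeR. ITGB1 (−0.10 ± 0.22) and ITGB8 (0.21 ± 0.36) also overlapped between the groups. ITGB5 was at 122 and 114 CPM in the 1797 osteoclasts against 73.0 and 92.1 CPM in the control osteoclasts, a log2 fold change of 0.50 ± 0.20 with an unadjusted p of 0.0465 and an adjusted p of 0.998. It was the only member with both 1797 libraries above both control libraries in this class, as were 16.6% of the 10447 genes tested. edgeR called 0% of genes in osteoclasts, with 433 (4.14%) at an unadjusted p under 0.05, while 12 (0.115%) were called by DESeq2.

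In the ACP5-high cluster alone, ITGB5 was at 123 and 85.7 CPM in the 1797 libraries against 68.6 and 55.7 CPM in the control libraries. The log2 fold change was 0.76 ± 0.27, with an unadjusted p of 0.0288 by edgeR and no call after adjustment. The cluster is part of the osteoclast class tested above, so this is no separate support. In this cluster edgeR called 0% of 9030 genes, 386 (4.27%) had an unadjusted p under 0.05, and 15.4% had both 1797 libraries above both control libraries. ITGAV there had a log2 fold change of 0.00 ± 0.22 and ITGB3 of 0.18 ± 0.24. Summed markers of stromal cells were lower in the 1797 osteoclasts, at 493 and 295 CPM against 573 and 807 CPM, with none of the 14 markers at 0 in all libraries. Their part in the results was not tested.

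The lowest p of a member within a class was that of ITGAV in macrophages. It was at 483 and 400 CPM in the 1797 macrophages against 260 and 234 CPM in the control macrophages, a log2 fold change of 0.90 ± 0.17. The unadjusted p was 0.00191 and the adjusted p 0.560 by edgeR, over 11605 genes, of which 0% were called and 997 (8.59%) had an unadjusted p under 0.05. DESeq2 gave an adjusted p of 0.00989 and called 83 genes (1.04%). In the other settings of edgeR the adjusted p ranged between 0.0889 and 0.850.

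ITGAV differed in the same direction in the larger deep macrophage clusters, those led by MRC1 and by APOE. It was at 627 and 487 CPM in the 1797 libraries against 458 and 343 CPM in the control libraries of the cluster led by MRC1, and at 377 and 229 CPM against 154 and 91.8 CPM in the cluster led by APOE. All values of the 1797 libraries were the higher ones in both. With the deep clusters summed, 17.8% of the 11466 genes tested also had both 1797 libraries above both control libraries. These clusters are parts of the macrophage class from the same libraries, so they are no separate support. A smaller deep cluster of 30 macrophages had 27 of them in control library 2 and is not compared here. In the shallow CD5L cluster, at 82.3 and 35.3 CPM against 39.8 and 125 CPM, the groups overlapped. With the shallow cluster left out the log2 fold change was 0.86 ± 0.18 with an adjusted p of 0.518 by edgeR.

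The beta genes differed less between the groups in macrophages. ITGB8 was at 135 and 138 CPM in the 1797 libraries against 106 and 93.0 CPM in the control libraries (0.51 ± 0.18, unadjusted p of 0.0270, adjusted p of 0.569 by edgeR). ITGB1 was at 239 and 312 CPM against 215 and 223 CPM (0.39 ± 0.21, adjusted p of 0.602 by edgeR). With ITGAV, 3 of the 4 members tested there lay above both control libraries in both 1797 libraries, against 17.1% of all genes tested in the class. ITGB3, at 23.9 and 17.2 CPM against 14.9 and 25.9 CPM, overlapped between the groups, as did ITGB5 (−0.08 ± 0.20).

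Summed monocyte markers were also higher in the 1797 macrophages, at 2745 and 1893 CPM against 1396 and 1565 CPM, with 0 of the 10 markers at 0 in all libraries. Summed osteoclast markers overlapped, at 990 and 735 CPM against 602 and 987 CPM, and summed stromal markers were lower, at 561 and 346 CPM against 710 and 1041 CPM. The part of these cells in the ITGAV difference was not tested.

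Of the macrophages, only those outside the shallow CD5L cluster of 1257 cells shared a parent cluster with the osteoclasts. This 1 parent cluster also held unnamed cells. In that cluster, before its division, ITGB3 was at 325 and 270 CPM in the 1797 libraries against 147 and 316 CPM in the control libraries, and ITGAV at 1228 and 1217 CPM against 772 and 1169 CPM. Osteoclasts were 24.4% and 31.7% of its cells with 1797 and 13.7% and 22.9% with the control peptide. They held 34.8% and 36.7% of its UMIs against 22.6% and 34.9%. In this undivided cluster ITGAV lay above in both 1797 libraries, as did ITGB8, at 148 and 136 CPM against 117 and 99.4 CPM. ITGB1, ITGB3 and ITGB5 overlapped. The share of all genes with both 1797 libraries above was not taken for this cluster.

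In monocytes 3 of the beta genes had lower values with 1797, none of them called. ITGB3 was at 22.1 and 28.0 CPM in the 1797 monocytes against 42.2 and 58.7 CPM in the control monocytes, a log2 fold change of −0.93 ± 0.22 with an unadjusted p of 0.00622 and an adjusted p of 0.969 by edgeR. ITGB8 was at 35.8 and 51.0 CPM against 71.98 and 65.7 CPM (−0.60 ± 0.23, unadjusted p of 0.0409, adjusted p of 0.969 by edgeR). ITGB5, at 9.08 and 8.95 CPM against 14.2 and 11.5 CPM, also lay below. These 3 of the 5 members lay below both control libraries in both 1797 libraries, as did 21.9% of the 11854 genes tested. ITGAV (413 and 436 CPM against 435 and 605 CPM) and ITGB1 (347 and 411 CPM against 347 and 382 CPM) overlapped. edgeR called 0% of genes in monocytes, with 561 (4.73%) at an unadjusted p under 0.05, and DESeq2 called 31 (0.369%), no member among them.

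Summed osteoclast markers in monocytes overlapped between the groups, at 355 and 294 CPM in the 1797 libraries and 344 and 330 CPM in the control libraries. Summed stromal markers were lower, at 787 and 490 CPM against 1243 and 1041 CPM. The part of either in the monocyte values was not tested.

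**Figure D5:**
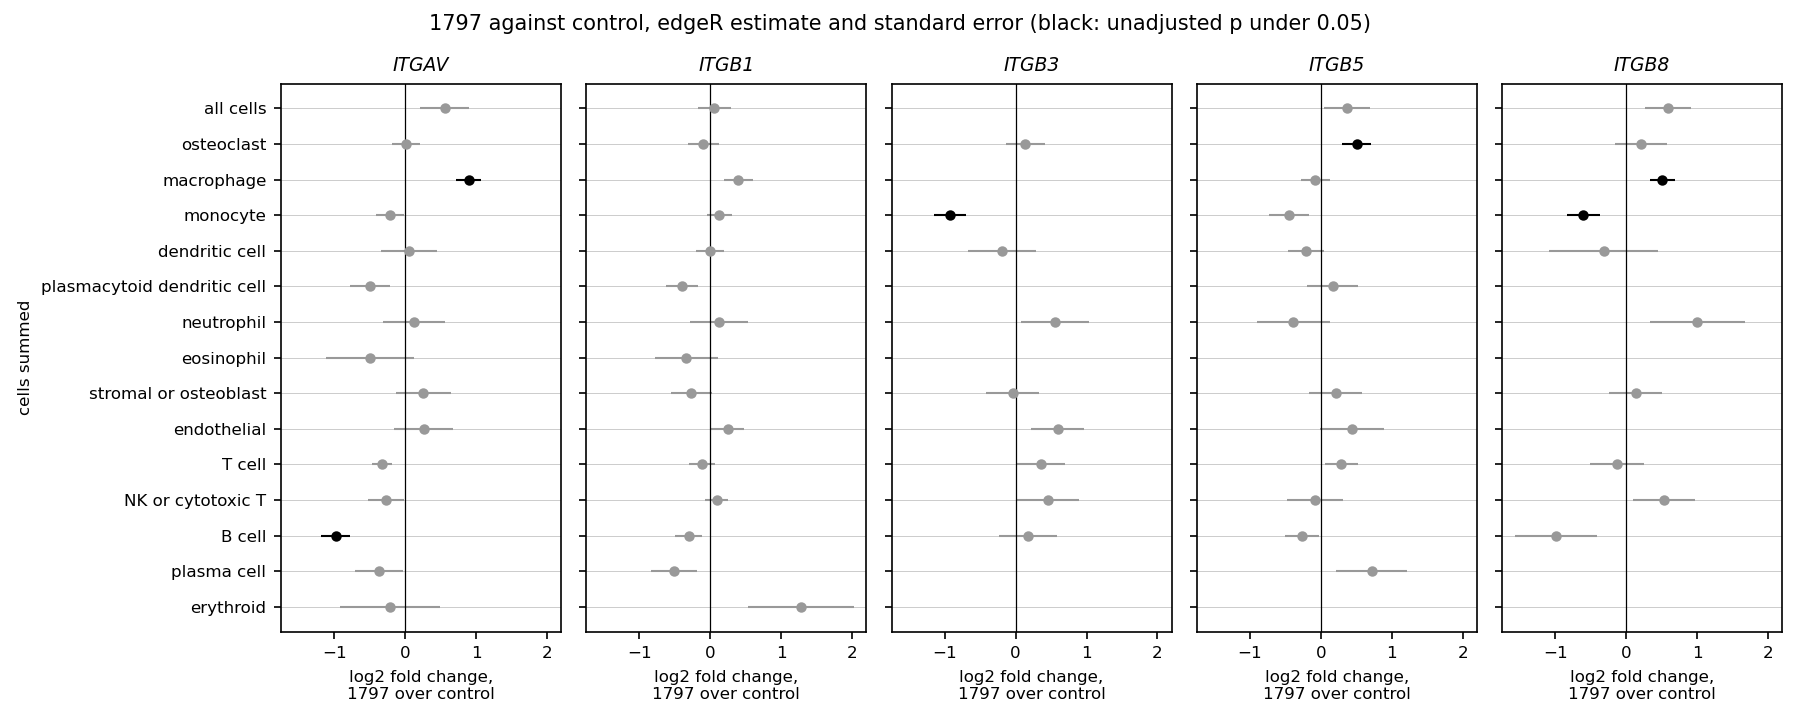
Log2 fold change of 1797 over control with its standard error from edgeR for each integrin gene in each class, 2 libraries per group, without ITGB3 in macrophages and in all cells. Black marks an unadjusted p under 0.05. ITGAV is higher in macrophages (0.90) and near 0 in osteoclasts (0.01), and ITGB3 is lower in monocytes (−0.93), none of them called by edgeR after adjustment.

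The plot of fold changes shows the 6 values with an unadjusted p under 0.05, of which B cell ITGAV is the remaining one. It was at 14.2 and 13.2 CPM in the 1797 B cells against 24.9 and 31.6 CPM in the control B cells (−0.98 ± 0.21, adjusted p of 0.657 by edgeR), in a class used as a measure of free RNA. Stromal cells gave no member with groups apart. Their log2 fold changes were 0.26 ± 0.39 for ITGAV, −0.27 ± 0.29 for ITGB1, −0.04 ± 0.37 for ITGB3, 0.21 ± 0.37 for ITGB5 and 0.13 ± 0.37 for ITGB8, with an adjusted p of 0.999 to 1.00 by edgeR. Of 12607 stromal genes edgeR called 0%, 270 (2.14%) had an unadjusted p under 0.05, and DESeq2 called 4 (0.0317%). In stromal cells both high ITGAV values (930 and 854 CPM) were those of library 1 of the 1797 group and library 2 of the control group. These libraries also held most of the SFRP4 cluster (834 CPM of ITGAV). The cluster led by BGLAP and IFITM5, with 204 CPM, had 33 and 5 cells with 1797 and 30 and 12 with the control peptide. A cluster led by CHAC1 and WNT9A, with 182 CPM, had 23 and 8 cells against 39 and 10. The part of these clusters in the stromal values was not tested.

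Whether the effect of 1797 differed between classes was tested as an interaction, over 91 pairs of classes with the library as a block. Of 420 such values of members, again without ITGB3 in macrophages, 0 were called by edgeR, beside 0.0215% of the values of all genes. An unadjusted p under 0.05 was found for 38, 15 of them for ITGAV, beside 4.68% of all. Each class enters many pairs and all pairs share the same libraries, so these values are not independent of each other. The lowest p was that of ITGAV for B cells minus macrophages, at −1.88 ± 0.27 (unadjusted p of 3.01e-05, adjusted p of 0.119 by edgeR). Macrophages minus monocytes gave 1.12 ± 0.28 for ITGAV (unadjusted p of 0.00424) and 1.15 ± 0.25 for ITGB8 (unadjusted p of 0.00216), each with an adjusted p of 0.539. Macrophages minus osteoclasts gave 0.86 ± 0.22 for ITGAV, with an adjusted p of 0.890 by edgeR. No difference between classes in the response of a member therefore passed the adjusted threshold.

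The other genes of the integrin system were read from 7 lists, of which 104 of 108 genes were in the files. These gave no call by edgeR in osteoclasts, macrophages, monocytes, stromal cells or the sum of all cells. In plasma cells, where edgeR called 189 genes (2.08%), it called 1 gene each of the alpha-subunit, TGF-beta and osteoclast-function lists. Ligands of alpha-v and beta-1 integrins were mainly stromal: of 17 with at least 5 CPM in a class, 13 were highest in stromal cells, 3 in endothelial cells and 1 in macrophages. All 15 genes of osteoclast function, many of which are markers that named the class, were highest in osteoclasts. Between the groups, 0 of 9 tested alpha subunits other than alpha-v were higher in the 1797 osteoclasts and 9 were lower, with a median log2 fold change of −0.17 against −0.01 over all genes tested. The lowest p among them was that of ITGA2, a collagen receptor chain, at 94.2 and 29.98 CPM against 107 and 197 CPM (−1.34 ± 0.56, adjusted p of 0.998 by edgeR).

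In macrophages, 3 of 11 other alpha subunits were higher and 8 lower (median −0.16, all genes −0.02). ITGAM, the alpha chain of the complement receptor of myeloid cells, was at 51.7 and 59.0 CPM in the 1797 macrophages against 122 and 95.6 CPM in the control macrophages (−0.91 ± 0.21). Its partner ITGB2 was at 181 and 166 CPM against 105 and 129 CPM (0.63 ± 0.19), and ITGA5, the fibronectin receptor chain that pairs with beta-1, at 136 and 168 CPM against 114 and 97.1 CPM (0.59 ± 0.21). All 3 had an adjusted p between 0.560 and 0.569 by edgeR. The ligand fibronectin itself, FN1, was at 684 and 869 CPM in the 1797 macrophages against 170 and 417 CPM in the control macrophages (1.46 ± 0.43, adjusted p of 0.569 by edgeR). Of 13 ligands tested in macrophages 4 were higher and 9 lower (median −0.47), and the collagen genes COL1A1 (124 and 41.2 CPM against 179 and 261 CPM) and COL1A2 were among the lower ones, beside the lower stromal markers given above.

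The TGF-beta list, chosen for beta-8, had 6 of 11 genes higher and 5 lower in macrophages (median 0.20). SMAD7, a feedback inhibitor of TGF-beta signalling, was at 230 and 269 CPM in the 1797 macrophages against 182 and 186 CPM in the control macrophages (0.50 ± 0.18, adjusted p of 0.569 by edgeR), and at 323 and 362 CPM against 237 and 256 CPM in osteoclasts (0.47 ± 0.17, adjusted p of 0.998 by edgeR). In monocytes LRRC32, which holds latent TGF-beta at the cell surface, was at 7.88 and 11.07 CPM in the 1797 libraries against 1.96 and 3.13 CPM in the control libraries (1.97 ± 0.37, adjusted p of 0.969 by edgeR). In stromal cells 10 of 12 genes of this list were higher and 2 lower (median 0.29, all genes 0.00). ITGB6, the remaining beta partner of alpha-v in the lists, was at 36.0 and 35.5 CPM in the 1797 stromal cells against 20.6 and 20.4 CPM in the control stromal cells (0.78 ± 0.28, adjusted p of 0.999 by edgeR).

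Adaptors that link integrins to actin were split evenly in macrophages, with 10 of 21 higher and 11 lower (median −0.03), and in osteoclasts 6 of 21 were higher and 15 lower (median −0.05). In the ACP5-high osteoclasts alone the balance was the opposite, with 15 higher and 6 lower (median 0.04). LIMS1, the PINCH adaptor that joins integrin-linked kinase, was at 567 and 598 CPM in the 1797 macrophages against 392 and 442 CPM in the control macrophages (0.54 ± 0.17, adjusted p of 0.569 by edgeR). In monocytes PARVB, a parvin of the same complex, was at 31.0 and 31.5 CPM against 81.0 and 70.6 CPM (−1.22 ± 0.20), and ACTN1, an actin crosslinker, at 178 and 204 CPM against 112 and 107 CPM (0.87 ± 0.18), each with an adjusted p of 0.969 by edgeR. Of the 15 genes of the sealing zone and of signalling from beta-3, 7 were higher and 8 lower in osteoclasts (median −0.02), and 11 higher and 4 lower in the ACP5-high cluster (median 0.12). PTK2B, the kinase PYK2 that binds this integrin complex in osteoclasts, was at 148 and 156 CPM in the 1797 osteoclasts against 190 and 200 CPM in the control osteoclasts (−0.37 ± 0.16, adjusted p of 0.998 by edgeR).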

How the data were processed

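The deposited matrices hold UMI counts by gene and barcode, which the authors did not normalize. Per the submitters' processing notes they were made with Cell Ranger 5.0.0 on Sscrofa11.1, while the file headers give version 7.0.1. Barcodes with at least 200 genes and under 20% mitochondrial counts were kept, and 1798 doublets called by Scrublet (scanpy 1.11.5, expected rate 0.1) were removed. Cells were clustered with Leiden (resolution 1.0, 2000 variable genes, 30 components, python-igraph 0.11.9) without integration, and 2 mixed clusters were divided again (resolution 0.5) after the clusters were seen. Clusters were named from marker lists. Counts were summed per library and class and tested with edgeR 4.0.16 (quasi-likelihood, TMM, filterByExpr), 2 libraries per group, no covariate, with DESeq2 1.42.0 as the alternative. The tests were checked on simulated data. Thinning drew UMIs without replacement.

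The members and lists were chosen with earlier results of these data known. Named were the 5 members, up to 4 genes per list and fit with the lowest edgeR p, and the 5 genes most like each member over classes. Library numbers are not stated to pair samples (correlation of same-numbered libraries' deviations −0.31). The smallest two-sided exact permutation p for 2 against 2 is 0.333, so no such test was used.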

Additional observations from a re-analysis of the deposited data

How the results depend on the processing

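With 2 libraries per group the counts of called genes moved with the tool. Where edgeR called 0, DESeq2 called 83 in macrophages, 31 in monocytes, 12 in osteoclasts, 4 in stromal cells and 21 in the sum of all cells, and 1 member value in all classes. Without the filter on low counts edgeR called 35, 9, 19 and 1 in these 4 classes. With 1 library left out it called 0 to 22 in macrophages, 0 to 4 in monocytes and 0 to 106 in stromal cells, of which 34 came without control library 1 and 106 without control library 2. Of 1098 alternative log2 fold changes of members, 1093 kept their side of the threshold. Where the first value lay over 1 standard error from 0, these also kept their direction. Of the 71 first values, 36 lay under 1 standard error from 0, and a change of direction was not counted for them. ITGAV in macrophages was called by DESeq2 (0.90, and 0.86 without the shallow cluster). With 1 library left out, ITGAV in NK or cytotoxic T cells ranged from −0.51 to 0.0025, and ITGB3 from −0.24 to 0.89 there and from −0.087 to 0.71 in T cells, so their direction was not settled.

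The level of ITGAV in osteoclasts was 1595 CPM at Leiden resolution 0.5 and with the division at 0.3 alike. It was 2086 CPM with the division at 1.0 and 1097 CPM in the undivided cluster. That cluster, which lacks the shallow CD5L macrophages, also replaces the macrophage value. ITGB3 was at 427 CPM at resolution 0.5 and with the division at 0.3, and at 265 CPM undivided, for osteoclasts and macrophages alike. In macrophages ITGB3 was at 47.4 CPM with the members left out of the variable genes and at 45.0 CPM with the division at 1.0. The mean share of osteoclasts with an ITGAV UMI was 97.0% unthinned, 58.1% thinned to 500 UMIs, 49.1% at resolution 0.5, 50.4% with the division at 0.3 and 59.4% at 1.0. For ITGB3 these were 92.1%, 29.2%, 27.9%, 28.4% and 36.6%. Over single clusters in place of classes, ITGAV correlated at 0.69 with ITGB3, below 0.76 with ITGB1 and 0.73 with ITGB5, and at 0.59 with ITGB8. The cause of these shifts was not tested beyond the change in cells that each setting makes.

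The replicate number as a block gave 0 calls among members, and 0 genes in macrophages, monocytes, osteoclasts, stromal cells and all cells. With the control numbers crossed, it called 0 genes in all cells and 116 in plasma cells, the class with the most calls. The limits are 2 libraries per group, classes with as few as 25 cells in a library, and depth per cell, which differed between classes.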
